A study of Saccharomyces cerevisiae with 3 samples.

Results

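The 7 septin genes described here are CDC3, CDC10, CDC11, CDC12 and SHS1, which build the septin ring of budding Saccharomyces cerevisiae cells, and SPR3 and SPR28, which are made in sporulating cells. They were chosen by name and are 7 of the 5325 genes that the platform annotation of a yeast tag array names, and they hold 34 of its 18794 named probes. Tag DNA of an essential-gene variomics pool, a mixed culture in which each strain carries sequence variants of 1 gene and short DNA tags that mark it, was measured on 3 arrays, 1 each after selection with cycloheximide, rapamycin or tunicamycin. Per the labels, the Cy5 channel held drug-selected genomic DNA and the Cy3 channel untreated DNA of the same pool, and cells were sporulated before selection. The rapamycin sample alone is described as "single", a word not explained in the sources used here. Strain, dose and time are likewise not given there, and no drug has a replicate.

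Septins are GTP-binding proteins that join into rods and then into filaments at the bud neck, where they hold cell wall, polarity and cytokinesis proteins in place. In the yeast rod Cdc10 lies in the centre, followed outwards by Cdc3, Cdc12 and, at the ends, either Cdc11 or Shs1. In sporulation Spr3 and Spr28 enter such rods, which lie along the growing prospore membrane, in the places of Cdc12 and of the end subunit. CDC3 and CDC12 are essential for growth, CDC10 and CDC11 are needed in some conditions and strain backgrounds and dispensable in others, and SHS1, SPR3 and SPR28 are dispensable for growth. The sources used here do not list the strains of the pool, so it is not known which septins had a strain in it.

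A value below is a log2 ratio, taken as drug-selected over untreated DNA, minus the median of its array. The labelled dyes make this direction likely, but the file does not state it; with the ratio turned, every sign turns, so that CDC12 would be the highest and CDC3 the lowest septin, and depleted genes would be enriched ones. A gene value is the mean over the measured probes of the gene, with the SD between probes and their number n. Array medians before centring were -0.74, -1.32 and -0.87 for cycloheximide, rapamycin and tunicamycin. The spread unit of an array, its scaled median absolute deviation over genes, was 0.924, 1.06 and 0.914. Of the 102 septin spots, 85 were measured, 11 were empty and 6 held the value 16.61, which was read as a code and left out.

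CDC12 was the septin with the lowest gene value on every array, and CDC11 was the next lowest. Under tunicamycin the place of CDC11 depends on the probe, since its probes had -7.08 and 1.87. The lower-numbered probe of CDC12 had -6.33 there, above that of CDC11. On the cycloheximide array CDC12 had -3.87 ± 0.72 (n = 2), after rapamycin -8.10 (n = 1) and after tunicamycin -4.57 ± 2.49 (n = 2). These values are 14.6-fold, 275-fold and 23.7-fold below the array median. CDC3, CDC10, SHS1, SPR3 and SPR28 all lay between -0.30 and 2.32, the band in which most genes of the array fell. No septin was enriched on any array, by the same rule of size that calls depletion. Few genes could show otherwise, since 2, 3 and 5 of all genes met that rule under cycloheximide, rapamycin and tunicamycin. CDC3 and SPR3 had 1 measured probe each under cycloheximide and could not be called there.

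Depletion was called by size: the gene value lay 3 or more spread units below 0, and all of its measured probes, of which 2 or more were needed, lay 2 or more units below 0. CDC12 alone met this rule, under cycloheximide and under tunicamycin. Both calls ended (0 septins depleted) after quantile normalization, which left CDC12 with 1 probe, and when spots at small whole-number ratios were left out, which widened the spread unit. That is 1 of the 5 septins with at least 2 measured probes under cycloheximide, against 15.2% of all 4121 such genes. Under rapamycin 0 of 5 septins were depleted, against 6.45% of 4015 genes, and under tunicamycin 1 of 7, against 13.6% of 4169 genes. By the value alone, with a single probe sufficing, 1 of 7 septins lay 3 units below 0 on each array (14.3%), again CDC12, against 13.6%, 13.5% and 14.4% of all genes. The share of septins called was thus near that of all genes on the arrays where CDC12 could be called. Enriched genes were 0.0485%, 0.0747% and 0.12% of those with at least 2 measured probes. No p-value is given, since each drug has 1 array.

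**Figure D1:**
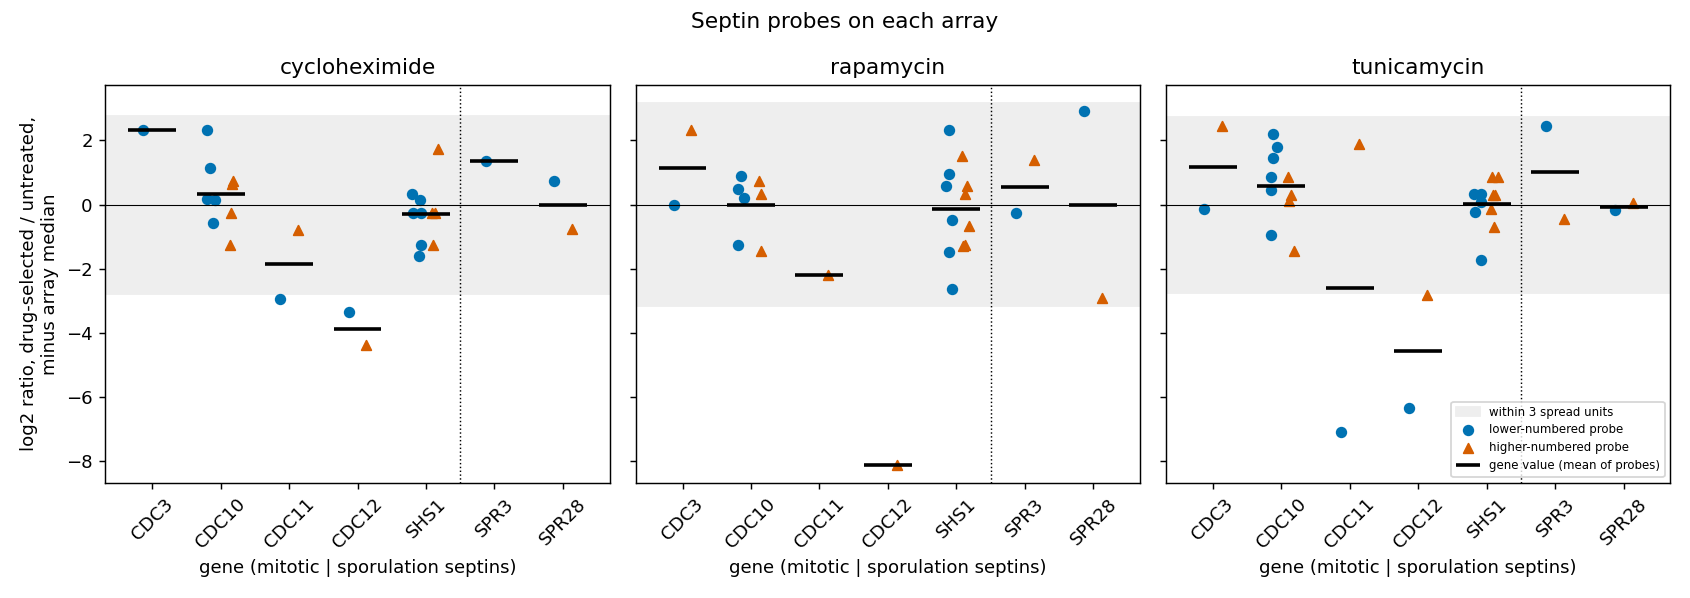
Centred log2 ratio of drug-selected over untreated DNA (y axis) for each measured probe of the 7 septins (x axis) on the cycloheximide, rapamycin and tunicamycin arrays, with circles for lower- and triangles for higher-numbered probes, bars for gene values and a grey band for 3 spread units around 0. All measured CDC12 probes lie below the band, CDC11 has 1 probe below it under cycloheximide and 1 under tunicamycin, and every probe of the other septins lies within it.

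CDC10, the central subunit of the rod, was read by 12 probes and stayed near the array median. Its probes ran from -1.26 over a median of 0.19 to 2.32 under cycloheximide (n = 9), from -1.45 over 0.32 to 0.91 under rapamycin (n = 7) and from -1.45 over 0.67 to 2.20 under tunicamycin (n = 10). Probes lay on both sides of 0 on each array, with 3 of 9, 2 of 7 and 2 of 10 below it. The gene values were 0.34 ± 1.04, -0.01 ± 0.95 and 0.57 ± 1.14, so the differences between arrays, at most 0.58, were smaller than the SD between probes. The probes of a gene were paired here by a constant step of 10971 found in their probe numbers. The first CDC10 pair averaged 0.08 (n = 2), 0.91 (n = 1) and 0.95 (n = 2), and the other probes 0.42 (n = 7), -0.16 (n = 6) and 0.47 (n = 8).

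All 6 coded septin spots belonged to CDC10. Under rapamycin there were 4 and under tunicamycin 2, while coded spots made up 0.803% and 2.14% of the named spots of these arrays. CDC10 was the only one of the 5325 genes with 4 coded spots under rapamycin, and 75 of the 781 genes with 12 probes had any. Under tunicamycin 36 of the 781 had 2 or more. With the code kept as a ratio, the CDC10 value would be 6.52 under rapamycin and 3.32 under tunicamycin, without meeting the rule for enrichment. The meaning of the code is unknown here.

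CDC3, which lies next to Cdc10 in the rod and is essential, had the highest gene value of the 7 septins on each array. Under rapamycin and tunicamycin this place rests on its higher-numbered probe. It had 2.32 (n = 1) under cycloheximide, where the other probe was empty. It had probes at -0.03 and 2.32 under rapamycin and at -0.13 and 2.46 under tunicamycin, with gene values of 1.15 ± 1.66 and 1.17 ± 1.83 (n = 2 each). The higher-numbered probe was the higher of the pair on both arrays that measured both. Of 5192 genes with a value under cycloheximide, 99.0% were lower than CDC3, as were 93.6% of 5110 genes under rapamycin and 93.3% of 5232 under tunicamycin. No CDC3 value reached 3 spread units.

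Many deposited values are quotients of small integers. In CDC3, 4 of the 5 measured spots matched, within 0.0006 on the log2 scale, a quotient of integers no larger than 10. So did 19 of 26 CDC10 spots, 26 of 33 SHS1 spots, 3 of 5 SPR3 spots and 2 of 6 SPR28 spots, against 66.5%, 41.0% and 64.3% of all measured spots on the cycloheximide, rapamycin and tunicamycin arrays. Of CDC11 it was 1 of 5 spots and of CDC12 0 of 5. Such ratios cannot go below -3.32 on the deposited scale, and every CDC12 spot did. Without these spots CDC3 kept a single value, -0.03 under rapamycin.

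CDC12, the essential subunit between Cdc3 and the rod's end, was low in every measured probe. Its lower-numbered probe had -3.36 under cycloheximide and -6.33 under tunicamycin and was empty under rapamycin. Its higher-numbered probe had -4.38, -8.10 and -2.81 under cycloheximide, rapamycin and tunicamycin. The higher-numbered probe was thus the lower of the pair under cycloheximide and the higher of the pair under tunicamycin. The probes differed by 1.02 under cycloheximide, less than the median difference of 1.17 over the genes with 2 probes. Under tunicamycin they differed by 3.52, which 8.28% of 3284 such genes equalled or exceeded.

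CDC12 lay within the low group of genes on each array without standing at its edge. Of all genes with a value, 5.70% were lower under cycloheximide, 2.82% under rapamycin and 9.23% under tunicamycin. The gene value differed by 4.23 as cycloheximide minus rapamycin and by -3.53 as rapamycin minus tunicamycin, and the rapamycin value rests on 1 probe. The higher-numbered probe, measured on all 3 arrays, was lowest under rapamycin too. No replicate or test bears on this difference.

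**Figure D2:**
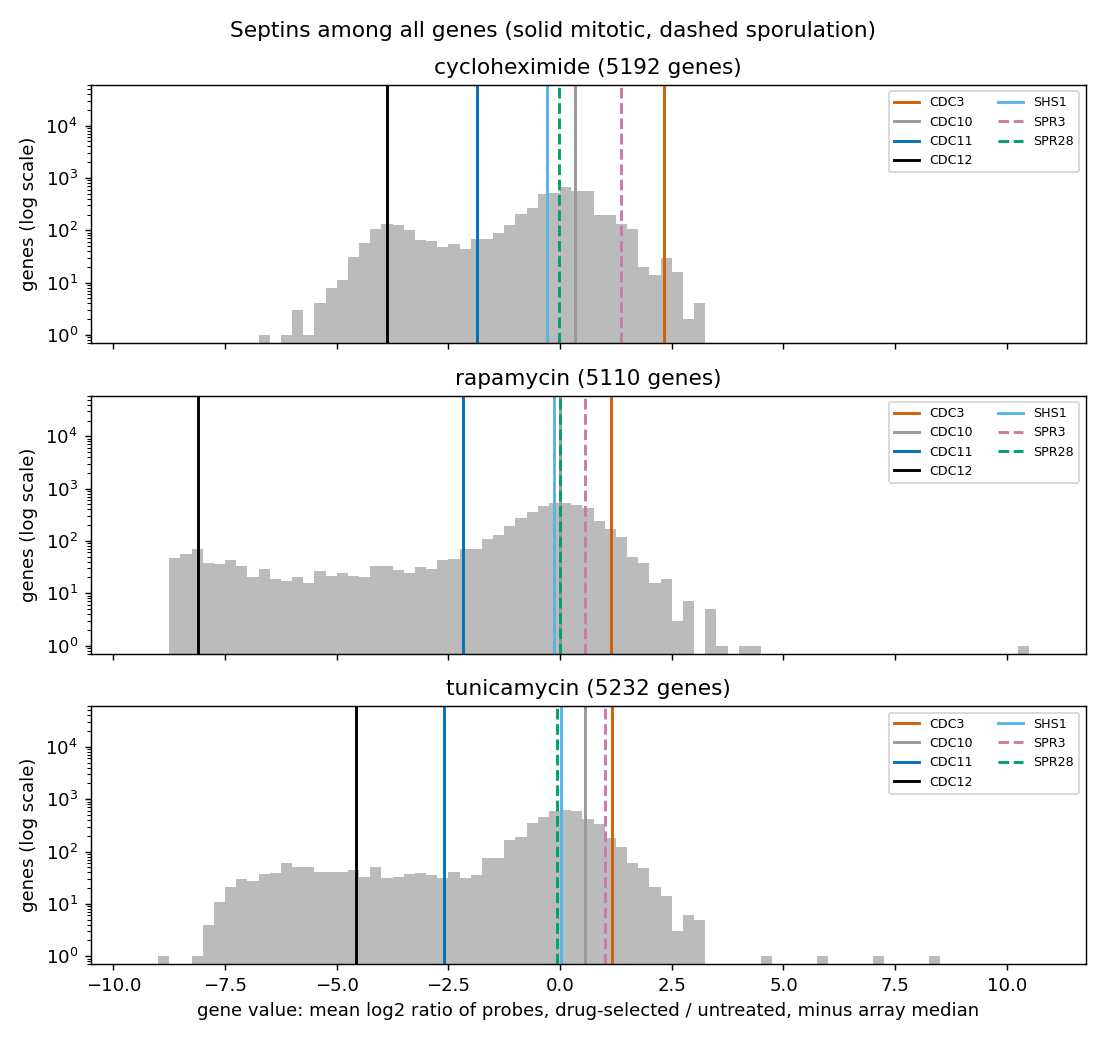
Number of genes (y axis, log scale) by gene value (x axis, centred log2 ratio) on each array, with a line for each septin, solid for mitotic and dashed for sporulation septins. CDC12 at -3.87, -8.10 and -4.57 falls among the genes of the low shoulder, the other lines except CDC11 stand in the main peak or on its upper side, and under rapamycin the lines of CDC10 (-0.01) and SPR28 (0.00) coincide.

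CDC11, an end subunit, was low in some probes only. Under cycloheximide its probes had -2.93 and -0.79, with a gene value of -1.86 ± 1.51 (n = 2). Under rapamycin the only measured probe, the higher-numbered one, had -2.18. Under tunicamycin the lower-numbered probe had -7.08 and the higher-numbered one 1.87, so the gene value of -2.60 ± 6.33 (n = 2) describes neither. A gap of 8.96 or more between probes was found in 9 of 3284 genes with 2 measured probes under tunicamycin (0.274%), CDC11 included. CDC11 was therefore depleted by the rule on no array, and the direction of its tunicamycin value depends on the probe.

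Of the 3 septin probes that were empty under rapamycin, the lower-numbered ones of CDC11 and CDC12 and a higher-numbered one of CDC10, the first 2 bear on the low septins. Among genes with 2 probes whose higher-numbered probe lay at least 3 units below 0 on that array, the lower-numbered probe was empty in 17.6% of 403, against 8.35% of 3065 genes whose higher-numbered probe was above that level. The shares ran the other way under cycloheximide, 1.96% against 9.96%, and under tunicamycin, 3.31% against 9.03%. Under rapamycin CDC12 belongs to the first of these sets and CDC11 to the second. Empty probes left both genes with n = 1 under rapamycin, so that neither could be called there.

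**Figure D3:**
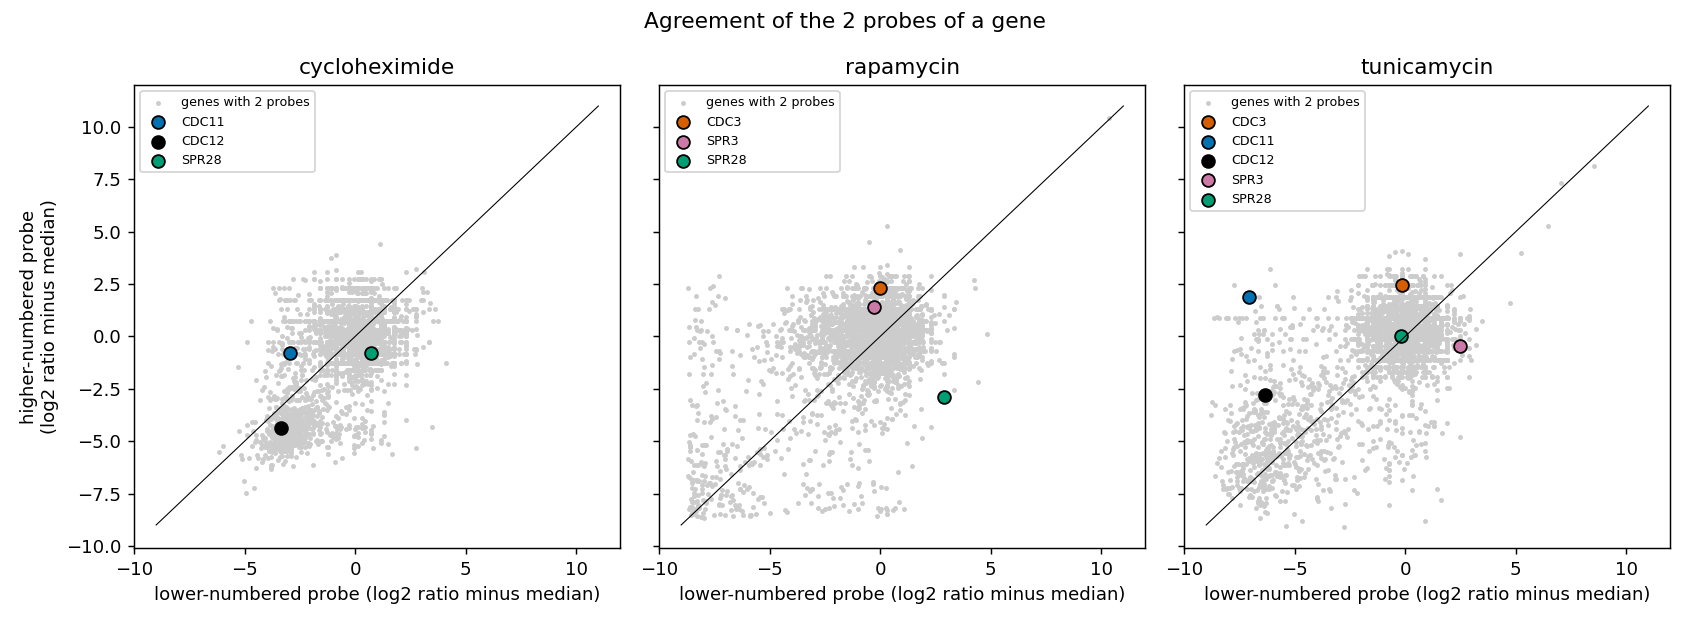
Centred log2 ratio of the lower-numbered (x axis) against the higher-numbered probe (y axis) for genes with exactly 2 probes, both measured, on each array, with septins as large points and the line of equality drawn. CDC12 lies with the genes low in both probes under cycloheximide and tunicamycin, while CDC11 under tunicamycin, at -7.08 and 1.87, stands at the upper left edge of the cloud.

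SHS1, the alternative end subunit, was read by 12 probes like CDC10, and its gene values lay near the array median. Whether the pool held an SHS1 strain is not known. Its probes ran from -1.58 over -0.26 to 1.74 under cycloheximide (n = 10), from -2.62 over -0.08 to 2.32 under rapamycin (n = 12) and from -1.71 over 0.29 to 0.87 under tunicamycin (n = 11). The gene values were -0.30 ± 0.96, -0.13 ± 1.42 and 0.02 ± 0.74, which span 0.32 over the arrays. Genes with 12 probes were seldom low. Of 781 such genes 2, 5 and 1 lay 3 units below 0 under cycloheximide, rapamycin and tunicamycin, against 700 of 4306, 679 of 4224 and 746 of 4346 genes with 2 probes. CDC10 and SHS1 thus belong to a class of genes on this array in which low values were rare.

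SPR3, the sporulation septin that takes the place of Cdc12, stood slightly above the array median on each array. It had 1.35 (n = 1) under cycloheximide. Its probes stood at -0.26 and 1.39 under rapamycin and at 2.46 and -0.45 under tunicamycin, with gene values of 0.56 ± 1.17 and 1.01 ± 2.06 (n = 2 each). The higher probe was the higher-numbered one under rapamycin and the lower-numbered one under tunicamycin, so no probe of the pair was steadily above the other.

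SPR28, the sporulation septin counted with the end subunits, had gene values within 0.08 of each other. They were -0.02 ± 1.07 under cycloheximide, 0.00 ± 4.11 under rapamycin and -0.07 ± 0.15 under tunicamycin (n = 2 each). Its probes stood at 0.74 and -0.77 under cycloheximide and at -0.18 and 0.04 under tunicamycin. Under rapamycin they stood at 2.91 and -2.90, so that the value near 0 is the mean of a high and a low probe. A gap of 5.81 or more was found in 2.81% of 3130 genes with 2 measured probes on that array.

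The mitotic septins were set against the sporulation septins, of which the first act in dividing cells and the second in spore formation. The median of the 5 mitotic septins was -0.30, -0.13 and 0.02 under cycloheximide, rapamycin and tunicamycin, and the mean of SPR3 and SPR28 was 0.67, 0.28 and 0.47. The difference, mitotic minus sporulation, was -0.96, -0.41 and -0.44. It was smaller than the spread unit under rapamycin and tunicamycin and slightly larger under cycloheximide. With the higher-numbered probes alone it was 0.36, 0.62 and 0.45. Under cycloheximide this left 5 septins, without CDC3 and SPR3, so the set of genes changed along with the probes. Under rapamycin and tunicamycin all 7 septins entered, so there the sign depends on the probes used. No test is possible with 1 array per drug.

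By gene value, the 5 mitotic septins spanned a wider range than the 2 sporulation septins, but more genes tend to give a wider range. The mitotic septins ran from -3.87 to 2.32 under cycloheximide, from -8.10 to 1.15 under rapamycin and from -4.57 to 1.17 under tunicamycin. SPR28 and SPR3 stood at -0.02 and 1.35, at 0.00 and 0.56, and at -0.07 and 1.01. By gene value, CDC11 and CDC12 lay below both sporulation septins on each array, CDC3 lay above both, and CDC10 and SHS1 lay between or just below them. Single probes did not keep this order, as with CDC11 at 1.87 under tunicamycin and SPR28 at -2.90 under rapamycin. The sporulation probes ran from -0.77 to 1.35, from -2.90 to 2.91 and from -0.45 to 2.46. Within these ranges lay 2, 4 and 3 of the 5 mitotic gene values. Of the measured probes, 3 of 24, 1 of 23 and 3 of 27 mitotic ones lay at least 3 units below 0, against 0 of 3, 0 of 4 and 0 of 4 sporulation ones and 8.23%, 8.41% and 8.10% of all measured spots. All of the low mitotic probes were CDC11 or CDC12 probes.

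Most neighbours in the order of the septins did not differ beyond the range of their probes. From lowest to highest gene value, CDC12 and CDC11 came first and CDC3 last on all arrays, with SPR3 next to CDC3. With lower-numbered probes alone, CDC11 lay below CDC12 under tunicamycin, and CDC3 was not the highest under rapamycin or tunicamycin. Of 18 steps between neighbours, 6 on each array, 3 joined genes whose probes did not overlap. These were CDC12 and CDC11 under cycloheximide, a gap of 2.01, and under rapamycin, a gap of 5.92 between single probes, and SPR3 and CDC3 under cycloheximide, also between single probes. The order of SPR28, SHS1 and CDC10 changed between arrays, with gaps of at most 0.54 between those of them that were neighbours.

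Genes that act with the septins at the bud neck had low medians in the list of essential genes and medians near 0 in the list of non-essential ones. The lists were chosen with earlier results of these data known. The pool is an essential-gene pool whose strains are not listed, so genes listed as non-essential may have had no strain in it. Whether this shaped the contrast was not tested. The essential neck and polarity genes, of which 9 of the 10 listed were on the array, had medians of -2.25, -3.80 and -3.44 under cycloheximide, rapamycin and tunicamycin, with 2 of 8, 1 of 7 and 2 of 5 members depleted, against 15.2%, 6.45% and 13.6% of all genes, and 0 enriched. CDC28, the cyclin-dependent kinase, was depleted on each array at -3.66 ± 0.91, -5.30 ± 0.07 and -3.95 ± 0.87 (n = 2 each). INN1, which activates septum synthesis, was depleted at -3.55 ± 0.64 under cycloheximide and -4.39 ± 0.00 under tunicamycin (n = 2 each). The essential actin and Arp2/3 genes had medians of -3.51, -3.003 and -4.21, with 4 of 7, 2 of 5 and 5 of 8 depleted and 0 enriched. Not every member of that list is essential in every strain background. Over all genes the medians were -0.04, -0.21 and -0.09.

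Set against these essential genes together, CDC12 lay within their range under cycloheximide and tunicamycin and below it under rapamycin, and CDC3 lay above it on each array. Under cycloheximide CDC12 was higher than 3 of the 18 with a value, under rapamycin higher than 0 of 17 and under tunicamycin higher than 5 of 17. CDC3 was higher than all 18, 17 and 17. Its lower-numbered probe alone had -0.03 under rapamycin and -0.13 under tunicamycin, where the highest essential gene values were 0.66 and 0.37. CDC11 was higher than 11, 12 and 12 of them, CDC10 than 16, 15 and 17, and SHS1 than 14, 15 and 16. ARP3, an Arp2/3 subunit, had -4.26 ± 1.63 under cycloheximide, and COF1, cofilin, had -5.35 ± 3.72 under tunicamycin (n = 2 each), and both were depleted there.

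The 28 septin regulators and neck proteins listed as non-essential, among them septin kinases, had medians of 0.27, -0.11 and -0.02. Their depleted members were 1 of 23, 1 of 25 and 1 of 21, against 15.2%, 6.45% and 13.6% of all genes, in each case MYO1, the myosin of the cytokinetic ring, at -3.54 ± 1.59, -7.31 ± 0.89 and -7.04 ± 0.69 (n = 2 each). The 20 prospore membrane and spore wall genes, the surroundings of SPR3 and SPR28, had medians of -0.07, -0.14 and 0.12, and 0 of 11, 0 of 14 and 0 of 13 were called in either direction. SPO14, the phospholipase D needed for the prospore membrane, had -2.22 ± 1.72 under rapamycin and 1.74 ± 0.64 under tunicamycin (n = 2 each). The amino acid and adenine synthesis genes listed as non-essential had medians of 0.08, 0.06 and 0.11, with 1 of 37, 1 of 41 and 1 of 30 depleted and 0 enriched. That member was ADE13, adenylosuccinate lyase, named after its values were seen. Whether MYO1 and ADE13 were dispensable in the strain used is not known, since the strain is not given.

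**Figure D4:**
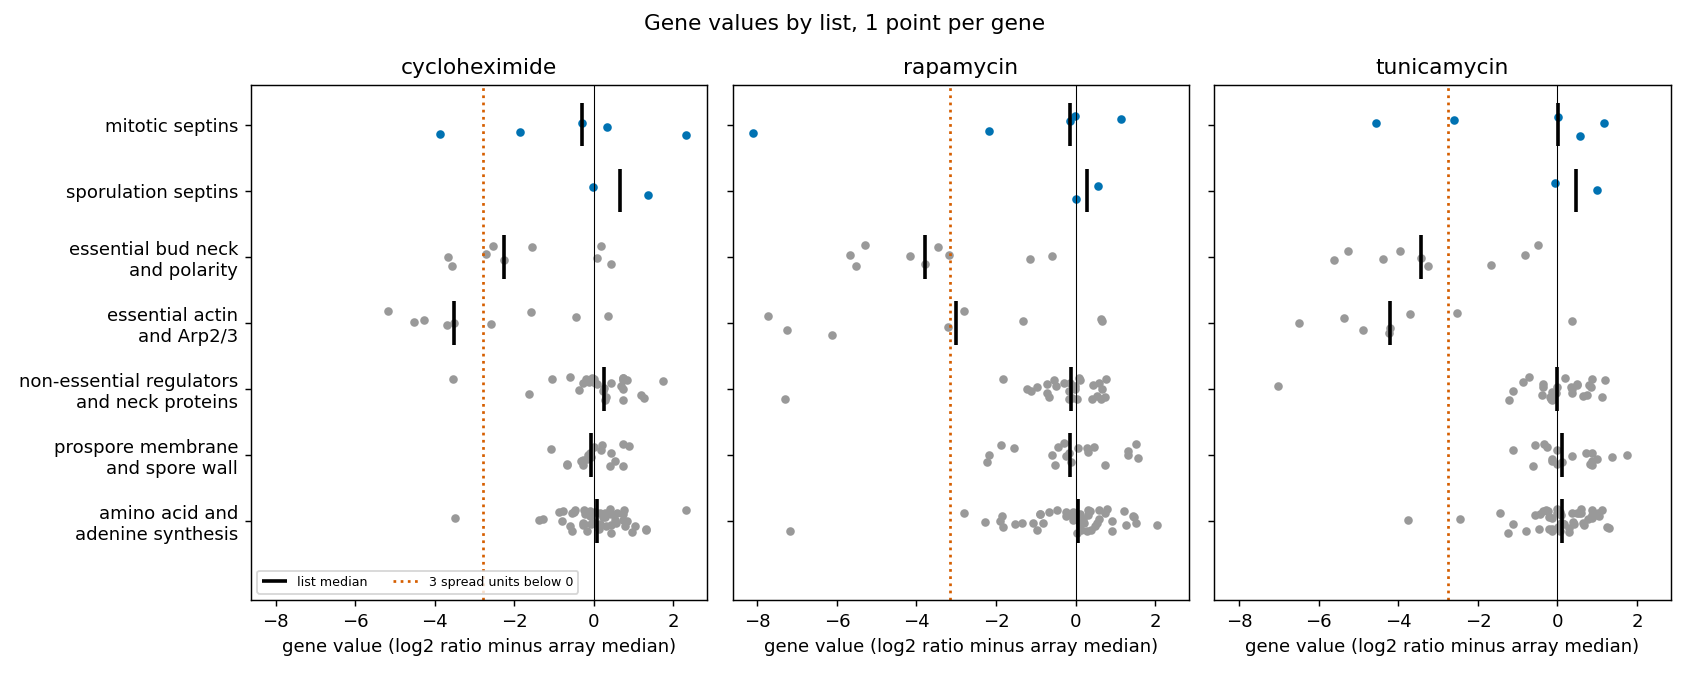
Gene values (x axis, centred log2 ratio) of the mitotic and sporulation septins and of 5 other lists (rows), 1 point per gene with a bar at the list median and a dotted line at 3 spread units below 0, on the cycloheximide, rapamycin and tunicamycin arrays. The septin medians stand near 0 with the non-essential lists, and CDC12 lies among the values of the essential lists under cycloheximide and tunicamycin and below all of them under rapamycin.

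The genes most like each septin were sought by Euclidean distance over the 3 gene values, among 2542 genes with at least 2 measured probes on every array. For CDC12 they were DRS1, an RNA helicase of large ribosomal subunit assembly, at a distance of 0.53 and SRP21, a subunit of the signal recognition particle, at 0.54. For CDC11 they were PWP2 of the small-subunit processome at 0.26 and BET3 of the TRAPP tether at 0.39, and 14 genes lay within 1. For CDC3 they were FMP40, a mitochondrial protein, at 0.14 and TIP20, an ER vesicle tether, at 0.61, and 3 genes lay within 1.

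The remaining septins had many close genes, as genes near 0 on all arrays do. Within a distance of 1 there were 974 genes for CDC10, 1010 for SHS1, 1157 for SPR28 and 121 for SPR3, against 19 for CDC12. The nearest to CDC10 were RPP1B and SRO77, to SHS1 PAA1 and MPD2, to SPR28 MRP49 and EST1, and to SPR3 HEL2 and TYR1, at distances of 0.06 to 0.35. For all 7 septins the distances to the nearest genes were smaller than the SD between probes on each array where at least 2 probes were measured, so the order of those genes cannot be resolved.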

How the data were processed

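The authors deposited 1 value per spot for 3 two-colour arrays, read here as log2 ratios of Cy5 (drug-selected, per the labels) over Cy3 (untreated). The direction is likely from the dyes but not stated in the file, and base 2 was taken from the values. Scanner, background correction and normalization: not given in the sources used here. Channel signals were not used here. The value 16.61, the log2 of 100000, was read as a code and left out with empty spots. A 2007 platform annotation gave the gene of each probe, with symbols updated from RefSeq (assembly R64; 5321 of 5325 genes matched). Coordinates are not printed, and RefSeq positions served only to find the genes flanking the septins.

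Spots were centred on the array median, and the measured probes of a gene were averaged. The spread unit is the median absolute deviation of gene values times 1.4826. A call needed at least 2 measured probes, a gene value at least 3 units from 0 and every probe at least 2 units to that side. No p-value was computed, because each drug has 1 array. The number of arrays limits the precision. The septins and all lists were chosen with earlier results of these data known. Named genes are the septins, up to 3 members per other list and drug with the largest absolute value (none of the amino acid and adenine list), and the 2 genes nearest to each septin. ADE13 and the genes flanking septins were named outside this rule, after their values were seen. The call rule was tested on simulated data, in which all probes of a lowered gene were shifted equally. Probes that disagree as strongly as those of CDC11 under tunicamycin were not modelled. Alternatives were other centrings, probe subsets, thresholds, quantile normalization and coded spots kept. Python 3.11.15, NumPy 2.4.6 and pandas 2.3.3 were used.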

Additional observations from a re-analysis of the deposited data

How the results depend on the processing

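CDC12 was low in every alternative run that gave it a value, between -3.36 and -6.38 under cycloheximide, -6.03 and -9.43 under rapamycin and -2.81 and -6.33 under tunicamycin. Under rapamycin all these values rest on the same spot, and -9.43 is its value without centring. Lower-numbered probes alone, or at least 2 measured probes, gave CDC12 no rapamycin value. CDC12 lost its call under cycloheximide and tunicamycin after quantile normalization (0 and 0 septins depleted, 191 and 167 genes in all), where only spots measured on all arrays enter and CDC12 has 1 probe. It lost both calls (0 and 0) when spots at small whole-number ratios were left out, a choice made after seeing the data that left its values as they were but widened the spread unit to 1.64 and 1.43, with 19 genes depleted under cycloheximide. Under rapamycin 1 septin, CDC12, was depleted when 1 measured probe sufficed (599 genes), and 399 genes were depleted without centring. Under cycloheximide 341 genes were depleted at thresholds of 4 and 3 units. The CDC11 value under tunicamycin was -7.08 with the lower-numbered probe and 1.87 with the other, and 1.78 after quantile normalization. CDC3 had -0.04 under rapamycin and -0.22 under tunicamycin after quantile normalization, and -0.03 and -0.13 with lower-numbered probes. In neither setting was CDC3 the highest septin on those arrays.

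The mitotic minus sporulation difference moved by more than a spread unit to -2.14 under rapamycin and -1.55 under tunicamycin with the mitotic mean in place of the median, to -1.76 under tunicamycin without CDC3, to -1.38 under tunicamycin with lower-numbered probes, to 0.36 under cycloheximide with higher-numbered probes, and to -2.15 under cycloheximide and -2.14 under tunicamycin without small-ratio spots. The values with higher-numbered probes under cycloheximide and those without small-ratio spots each rest on 5 of the 7 septins. The mean and the omission of CDC3 were also chosen after seeing the data. Of 117 alternative values of calls and differences, 99 stayed within 1.5 times the count or 1 spread unit, and 172 of 183 septin values stayed within the SD between probes or, with 1 probe, the spread unit. Neither tally measures robustness, since part of the alternatives could not count as moved. A shift of the centring cannot change the difference. With 2 measured probes, either probe alone always lies within the SD of their mean, as for CDC11 under tunicamycin, whose sign turned. Requiring at least 2 measured probes left the kept septin values unchanged. No paired analysis was possible because each drug has 1 array. Channel signals were not analysed here, so signal over background is not known for any septin spot.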

Other observations

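The genes that flank the septins on their chromosomes mostly lay within 3 spread units of the array median. Of 13 flanking genes with a value, 0, 1 and 1 lay at least 3 spread units below 0 under cycloheximide, rapamycin and tunicamycin. Over all genes the shares were 13.6%, 13.5% and 14.4%, and the counts were not tested against these. The medians of the flanking genes were 0.21, 0.00 and -0.13. The gene at least 3 units below 0 was ERG25, the sterol methyl oxidase gene beside SPR3, at -2.07 ± 2.32, -5.20 ± 2.96 and -2.78 ± 2.14 (n = 2 each), named after its values were seen, while SPR3 itself had 1.35, 0.56 and 1.01. The flanking genes of CDC12, TRR2 and GGA2, had values between -1.25 and 0.68, and WHI4, beside SHS1, had -1.26 under cycloheximide and -2.43 under rapamycin (n = 1 each).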
